A study of Mus musculus with 48 samples.

Results

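The cytochrome P450 genes of the mouse colon were examined in animals with and without a clock in the intestinal epithelium. The family was taken as every protein-coding gene of the GENCODE vM21 annotation whose symbol is Cyp followed by a digit, which gave 97 of the 55401 genes in the count table. Of these, 37 had enough counts to be tested (38.1%), 60 did not, and 22 of the 60 had 0 counts in every mouse. RNA was sequenced from colon tissue of 48 male C57BL/6J mice, 24 Bmal1IEC-/- mice and 24 controls, with 4 mice of each genotype killed at each of 6 circadian times (CT1, CT5, CT9, CT13, CT17 and CT21, in hours counted from the time at which lights would have come on). The mice were adults of a narrow age range, housed singly, fed chow freely and sampled in constant darkness. Bmal1IEC-/- mice carried floxed alleles of Bmal1 (Bmal1fl/fl), a gene the circadian clock cannot run without, and the Cre recombinase under the Villin promoter, which is active in intestinal epithelial cells. Controls were littermates with the same floxed alleles and no Cre. Tissue with all its cell types was sequenced, so cell types in which Villin-Cre is not active are part of every value, and fewer cells of a type and less RNA per cell cannot be told apart.

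Cytochrome P450 enzymes hold a heme group and use electrons from a partner reductase to put an oxygen atom onto fat-soluble molecules. Members of the *Cyp1*, *Cyp2* and *Cyp3* families mostly act on drugs, plant compounds and other foreign molecules that enter with food, *Cyp4* and *Cyp2j* enzymes act on fatty acids and the signalling lipids made from them, and the remaining families make or break down sterols, bile acids, vitamin D, retinoic acid and steroid hormones. The liver is their best known site, but the lining of the gut expresses its own set, and in liver many of them follow the time of day. By role, the tested genes were 19 of 50 members of the xenobiotic families, 11 of 29 members acting on fatty acids and eicosanoids, 4 of 7 of sterols and bile acids, 1 of 3 each of vitamin D and retinoic acid, 0 of 4 of steroid hormones, and *Cyp20a1*, an enzyme whose substrate is not established.

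The libraries held 3144997 to 4785844 counts each (median 3868330), and the P450 genes took 0.574% to 0.924% of them. The transcript of Bmal1 (*Arntl*) fell in controls from 257.6 normalised counts at CT1 to 26.2 at CT9, and stayed between 112.5 and 138.5 in the group means of Bmal1IEC-/- mice. Markers of the colon epithelium were abundant in all mice, with 10 of 10 tested, whereas 4 of 8 liver markers had a median of 0 counts. Of the 10 epithelial markers 5 were called higher in Bmal1IEC-/- mice (log2 0.15 to 0.30), against 6.4% of all genes tested. The 1 called lower was *Slc26a3* (-0.78), against 5.56% of all genes. The Bmal1IEC-/- mice SV384 and SV385 at CT1 stood apart from the other members of their group. Across genes their libraries correlated with SV479 and SV480 at r = 0.954 to 0.964, and SV384 with SV385 at 0.965, while SV479 and SV480 correlated with each other at 0.984. In SV385 the 5 smooth muscle markers summed to 695 CPM (counts scaled to 1000000 per library), against 2614 to 4399 in the 46 mice outside the pair, and the 10 epithelial markers to 31760 against 16113 to 24119. In SV384 the corresponding sums were 2749, inside the range of the 46 mice, and 25773, above it. Results that rest on these mice are given with all 48 mice and with 46.

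A single gene made up most of the family's RNA. *Cyp2c55*, a member of the xenobiotic families that oxidises arachidonic acid, held 73.2% of all P450 counts on average over the 48 mice (65.3% to 79.4%). Per length it reached 2694 RPKM (CPM per kilobase of exon), and the next genes were *Cyp2c65* at 235, *Cyp3a13* at 77.9, *Cyp4f14* at 63.5 and *Cyp2d34* at 46.1. *Cyp2c65* is a neighbour of *Cyp2c55* on chromosome 19, *Cyp3a13* belongs to the main drug-metabolising subfamily, *Cyp4f14* inactivates leukotriene B4, and *Cyp2d34* belongs to a large drug-metabolising subfamily. At the other end, the 6 lowest tested genes lay under 1 RPKM, among them *Cyp26b1*, which degrades retinoic acid, *Cyp2r1*, which takes the first step in activating vitamin D, and *Cyp1a1*, which is induced by the aryl hydrocarbon receptor. Exons of some members overlap other genes, as those of *Cyp51* and *Cyp2s1* do with *Akap9* and *Gm26707* on the other strand. Those of *Cyp4v3* overlap the protein-coding gene *Gm45753* on the same strand. Reads that fell in several genes were not counted, and since the strand setting is not given in the sources used here, how many reads such members lost is not known. The level that differed most between genotypes was that of *Cyp3a11*, at 0.318 RPKM in controls and 2.05 in Bmal1IEC-/- mice.

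**Figure D1:**
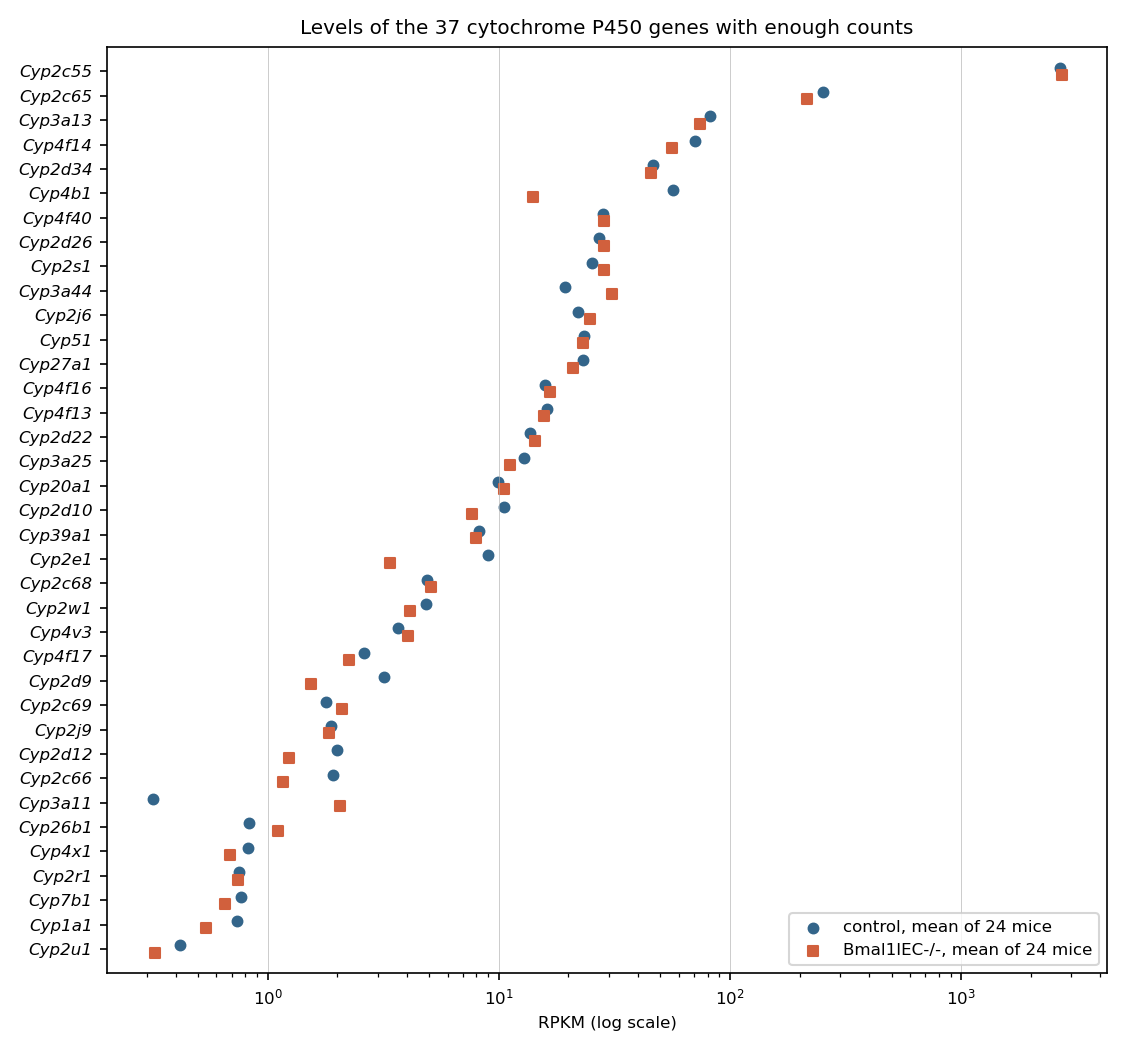
Mean level of each of the 37 tested cytochrome P450 genes in 24 control (blue circles) and 24 Bmal1IEC-/- mice (orange squares), in RPKM on a log axis. Cyp2c55 stands above all others at 2694, and the pairs of points lie farthest apart for Cyp3a11 and Cyp4b1, followed by Cyp2e1 (8.96 in controls and 3.39 in Bmal1IEC-/- mice) and Cyp2d9 (3.18 and 1.54).

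The first question was which P450 genes differed between genotypes over the whole day. The quasi-likelihood test of edgeR was run with circadian time as a term, adjusted by Benjamini-Hochberg over all 14618 genes tested and called at an adjusted p under 0.05. It called 12 of 37 P450 genes (32.4%), against 12% of all genes tested. Of these, 4 were higher in Bmal1IEC-/- mice, against 6.4% of all genes, and 8 were lower, against 5.56%. A fold change of at least 1.5 was reached by 7 of the 12, which is 18.9% of the family against 1.35% of all genes. The median size of the log2 difference was 0.19 over the 37 genes and 0.09 over all genes, while the signed median was -0.03 and 0.00. Among the xenobiotic families 3 of 19 rose and 6 fell, among the genes of fatty acids and eicosanoids 1 of 11 rose and 2 fell, and of the 7 genes in the other roles 0 were called by edgeR, with 1 at an unadjusted p under 0.05 and 0 called by DESeq2. Without SV384 and SV385 the test called 10 of 38 P450 genes, against 10.6% of all genes. The calls of *Cyp2s1* and *Cyp2j6* were then lost, with log2 differences of 0.19 and 0.13 in the 46 mice against 0.19 and 0.18 in all 48, and the added gene, *Cyp4f18*, was not called.

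**Figure D2:**
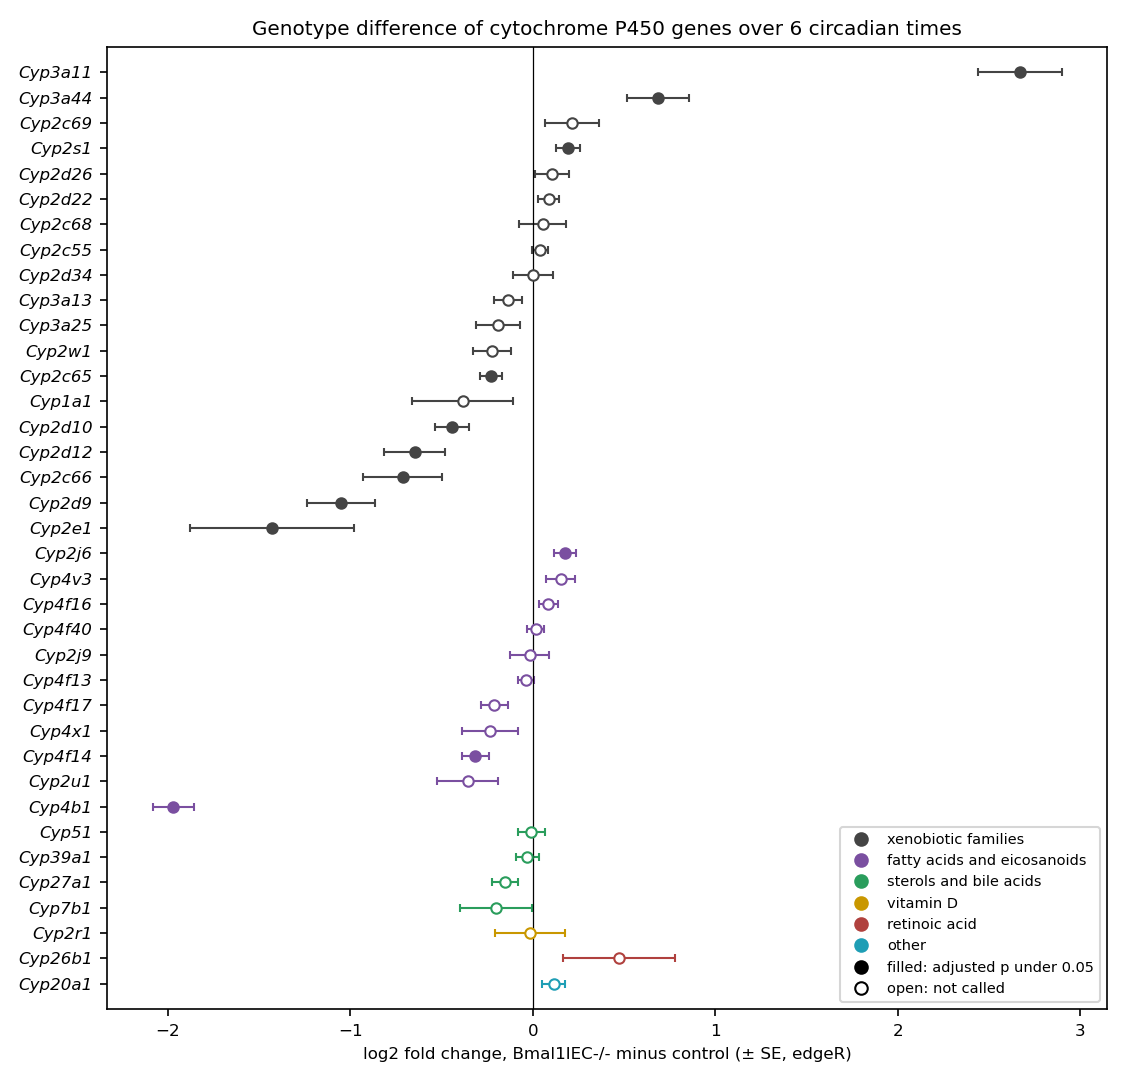
Difference between Bmal1IEC-/- and control mice for each tested cytochrome P450 gene, as log2 fold change ± SE from edgeR over 48 mice, grouped by role (colours). Filled points passed an adjusted p of 0.05, with Cyp3a11 at 2.67 and Cyp4b1 at -1.97 as the extremes and 0 filled points among sterols, vitamin D and retinoic acid.

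*Cyp4b1*, which hydroxylates fatty acids and activates some plant toxins, was the P450 gene with the smallest adjusted p. In controls the lowest, median and highest of 24 mice were 261, 448 and 949 normalised counts. In Bmal1IEC-/- mice they were 71.7, 128 and 176. The highest Bmal1IEC-/- mouse was thus below the lowest control, a separation seen in 1 of 37 P450 genes and in 0.0479% of all genes. The level was 3.92-fold lower in Bmal1IEC-/- mice (log2 fold change -1.97 ± 0.11 SE, edgeR adjusted p = 4.96e-19), and it was lower at 6 of 6 circadian times. The gap was narrowest at CT5, at 148 ± 19.1 (SD, n = 4) against 328 ± 70.8 in controls, and widest at CT17, at 104 ± 31.2 against 698 ± 214. Of its 50-base windows, 10.3% also occur in transcripts of other genes of the family, pseudogenes included, so a small part of its counts is uncertain.

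*Cyp3a11*, the most studied drug-metabolising P450 of mouse liver and a target of the pregnane X receptor, changed in the other direction. Controls had 0, 5.49 and 17.4 normalised counts (lowest, median and highest of 24 mice) and Bmal1IEC-/- mice had 9.74, 36.9 and 86.6. The ranges overlapped, but the median of Bmal1IEC-/- mice was above the highest control. The fold change was 6.36 (log2 2.67 ± 0.23, edgeR adjusted p = 6.12e-13), with a higher mean at 6 of 6 times. The level was low throughout: 8 of 24 controls had at most 3 counts, and no Bmal1IEC-/- mouse had more than 83. None of the 2753 50-base windows of its longest transcript was shared with another gene of the family. That transcript covers only part of the 5093 exon bases of *Cyp3a11*, and the rest was not searched. *Cyp3a44*, a relative of *Cyp3a11* also on chromosome 5, ranged from 37.8 to 290 normalised counts in controls (median 136). In Bmal1IEC-/- mice it ranged from 64.5 to 430 (median 215). The ranges overlapped widely, and the difference was called (log2 0.69 ± 0.17, edgeR adjusted p = 0.00486). For *Cyp3a44*, 26.5% of windows are shared with relatives such as *Cyp3a41a*, which had 0 counts in every mouse, so its counts are uncertain. *Cyp3a13* and *Cyp3a25* were not called, with log2 differences of -0.14 ± 0.08 and -0.19 ± 0.12.

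The starts of *Cyp4b1* and *Cyp3a11* are shown because they were the most changed members in either direction. The sequences are RefSeq promoters of the GRCm38.p6 build, from 250 bases before the start site to 50 bases after it, given 5′ to 3′ on the strand of the gene. *Cyp4b1* lies on the minus strand at chr4:115647672-115647971 and *Cyp3a11* on the minus strand at chr5:145879805-145880104. Capitals mark a match to TAGGTCA, a core bound by the receptors Rev-erb and ROR, which *Cyp3a11* had at -163 to -157 from its start. The 2 genes read:
Cyp4b1: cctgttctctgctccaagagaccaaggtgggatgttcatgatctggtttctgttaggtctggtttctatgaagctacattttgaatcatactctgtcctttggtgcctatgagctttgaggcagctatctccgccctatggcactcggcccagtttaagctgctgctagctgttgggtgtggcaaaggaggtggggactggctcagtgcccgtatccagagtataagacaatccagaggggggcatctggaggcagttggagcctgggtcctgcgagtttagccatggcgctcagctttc
Cyp3a11: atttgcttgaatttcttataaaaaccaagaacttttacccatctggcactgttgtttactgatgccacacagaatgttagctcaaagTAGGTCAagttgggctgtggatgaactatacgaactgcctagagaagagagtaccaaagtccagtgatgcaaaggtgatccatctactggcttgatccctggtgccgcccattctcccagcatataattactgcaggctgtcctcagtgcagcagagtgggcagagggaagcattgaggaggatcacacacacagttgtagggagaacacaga
Of 27025 promoters of the same length, 2.64% hold TAGGTCA on either strand. The *Cyp4b1* window had no match to it, nor to the E-boxes CACGTG (7.24% of all promoters) and CACGTT (4.77%), to GCGTG, the core bound by the aryl hydrocarbon receptor (32.5%), or to the D-box (1.62%). *Cyp3a11* likewise had no match to these other motifs.

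The *Cyp2d* subfamily fell in part. *Cyp2d9* had a median of 28.2 normalised counts in controls (12.9 to 75.1) and 15.4 in Bmal1IEC-/- mice (4.63 to 33.9), a log2 difference of -1.05 ± 0.19 (edgeR adjusted p = 6.13e-05). *Cyp2d12* went from a median of 28.3 (4.53 to 58.9) to 16.9 (0.941 to 36.2), a log2 difference of -0.65 ± 0.17 (adjusted p = 0.00693 in the same edgeR test). *Cyp2d10* went from 62.2 (43.1 to 112) to 48.7 (30.6 to 77.5), a log2 difference of -0.44 ± 0.09 (adjusted p = 7.59e-04, edgeR). In all 3 genes the ranges overlapped, and the mean was lower in Bmal1IEC-/- mice at 6 of 6 times for *Cyp2d9* and *Cyp2d10* and at 5 of 6 for *Cyp2d12*. The more abundant members *Cyp2d34*, *Cyp2d26* and *Cyp2d22* were not called, at 0.00 ± 0.11, 0.11 ± 0.10 and 0.09 ± 0.06 on the log2 scale. Copies in this subfamily are close: *Cyp2d10* shares 39.8% of its 50-base windows with relatives and *Cyp2d9* 28.3%, against 6.43% for *Cyp2d12*, and reads that match several copies were left out of the counts. An exon of *Cyp2d9* also overlaps the pseudogene *Gm46501* on the same strand.

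In the *Cyp2c* cluster on chromosome 19, *Cyp2c65* and *Cyp2c66* were lower in Bmal1IEC-/- mice and *Cyp2c55*, *Cyp2c68* and *Cyp2c69* were not called. *Cyp2c65* had a median of 1840 normalised counts in controls (1585 to 2336) and 1446 in Bmal1IEC-/- mice (1125 to 3236). The log2 difference was -0.23 ± 0.06 (edgeR adjusted p = 0.00717), and without SV384 and SV385, the highest mice of their genotype, it was -0.30 ± 0.05. *Cyp2c66* had a median of 12.6 in controls (5.43 to 27.4) and 9.38 in Bmal1IEC-/- mice (0 to 19.2), with a log2 difference of -0.71 ± 0.22 (edgeR adjusted p = 0.0222). These neighbours share 20.2% of the windows of *Cyp2c65* and 20.4% of those of *Cyp2c66*. *Cyp2c55* differed by only 0.04 ± 0.04 on the log2 scale, with medians of 20442 and 20154.

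The genes of fatty acids and eicosanoids held 2 smaller called differences beside *Cyp4b1*. *Cyp4f14* went from a median of 660 normalised counts in controls (379 to 951) to 534 in Bmal1IEC-/- mice (259 to 809), a log2 difference of -0.31 ± 0.07 (edgeR adjusted p = 0.00286), with a lower mean at 6 of 6 times. *Cyp2j6*, an epoxygenase of arachidonic acid, went from 301 to 339, a log2 difference of 0.18 ± 0.06 (edgeR adjusted p = 0.0418). *Cyp2s1*, a P450 of epithelia in the xenobiotic families, went from 489 to 537, a log2 difference of 0.19 ± 0.07 (edgeR adjusted p = 0.0493). Differences were also called in cell type markers. Of 10 epithelial markers 5 were higher, by 0.15 to 0.30 on the log2 scale, and 1 was lower, *Slc26a3* (-0.78). Of 5 goblet cell markers 1 was higher, *Fcgbp* (0.23), and 1 lower, *Clca1* (-0.51). Of 4 small intestine markers 1 was higher, *Alpi* (0.70). Lower were 1 of 5 smooth muscle, 1 of 5 fibroblast, 2 of 3 endothelial and 1 of 4 glia and neuron markers (log2 -0.22 to -0.34). Among all genes tested 6.4% were called higher and 5.56% lower. The part of such shifts between cell types in the differences of *Cyp2j6*, *Cyp2s1* and *Cyp2c65* was not tested. For *Cyp2j6* and *Cyp2s1* the ranges overlapped, and without SV384 and SV385 their adjusted p-values were 0.120 and 0.0650. Of the other fatty acid genes, *Cyp4f13*, *Cyp4f16* and *Cyp4f40* were at -0.04 ± 0.04, 0.09 ± 0.05 and 0.02 ± 0.05 on the log2 scale, and *Cyp4f17* at -0.21 ± 0.07 (edgeR adjusted p = 0.0522).

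*Cyp2e1*, which oxidises ethanol and other small molecules, varied far more between mice than between genotypes. Controls ranged from 2.13 to 366 normalised counts (median 47.1) and Bmal1IEC-/- mice from 1.05 to 138 (median 10.3). The log2 difference was -1.43 ± 0.45 (edgeR adjusted p = 0.0278), and the adjusted p rose above the threshold when the control mouse SV420, SV453 or SV434 was left out (0.0546, 0.0592 and 0.0662). The fat markers *Adipoq*, *Plin1*, *Cidec* and *Lep* moved with it. Their sum ran from 5.59 to 137 CPM in controls (median 28.1) and from 5.57 to 98.2 in Bmal1IEC-/- mice (median 14.9), and 1 of the 4 was called, *Cidec*, which was lower. Across mice, *Cyp2e1* and this sum on log2 scales correlated at Pearson r = 0.85 and Spearman rho = 0.91 in 24 controls, and at r = 0.86 and rho = 0.77 in 24 Bmal1IEC-/- mice. Each permutation p was 2e-05, also after Benjamini-Hochberg adjustment over the 2 genotypes, and that is the smallest that 100000 permutations can give. Without the 2 mice farthest from the median fat sum r was 0.87 in controls and 0.82 in Bmal1IEC-/- mice. The part of fat tissue in the genotype difference was not tested.

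**Figure D3:**
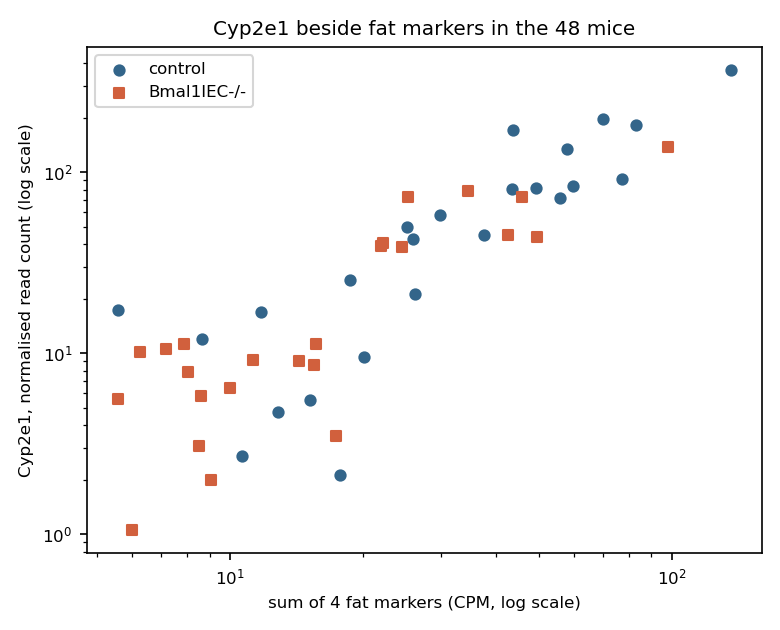
Cyp2e1 (normalised read count, log axis) against the summed level of the fat markers (CPM, log axis) in each of the 48 mice, with controls as blue circles and Bmal1IEC-/- mice as orange squares. Mice with more fat marker RNA had more Cyp2e1 in both genotypes, at Spearman rho of 0.91 and 0.77.

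The second question was at which times of day the genotypes differed, with 4 mice a group. At CT1, 9 of 37 P450 genes were called, against 24.7% of all genes. At CT5 and at CT9 2 were called in each case, against 0.376% and 1.46%, at CT13 and CT17 4 each, against 3.58% and 0.876%, and at CT21 1, against 0.328%. *Cyp4b1* was called at all 6 times, with log2 differences from -1.15 ± 0.22 at CT5 to -2.74 ± 0.23 at CT17. *Cyp3a11* was called at every time but CT21. Its difference was largest at CT9, at 60.4 ± 26.5 normalised counts (SD, n = 4) against 2.96 ± 1.86 in controls, and at CT13, at 40.5 ± 4.61 against 2.39 ± 1.84. *Cyp2c65* was lower at CT13 and CT17 (log2 -0.44 ± 0.12 and -0.55 ± 0.12), *Cyp2s1* was higher at CT13 (0.70 ± 0.15), and *Cyp2d10* was lower at CT17 (-0.99 ± 0.22). In all, 11 genes were called at 1 or more times, against 27.6% of all genes tested. Without SV384 and SV385, 2 of 38 P450 genes were called at CT1, against 1.23% of all genes, namely *Cyp4b1* and *Cyp3a11*. The other 7 calls at CT1 (*Cyp2c55*, *Cyp2d9*, *Cyp2d10*, *Cyp2d12*, *Cyp2d26*, *Cyp2j6* and *Cyp3a44*) were lost. Some of their differences hardly moved. That of *Cyp3a44* was 1.35 ± 0.38 with 48 mice and 1.32 ± 0.44 with 46. For *Cyp2d26* the values were 0.71 ± 0.23 and 0.66 ± 0.28. By contrast, that of *Cyp2c55* went from 0.26 ± 0.09 to 0.10 ± 0.10. In the 46 mice 5 genes were called at 1 or more times, against 6.42% of all genes.

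The third question was which P450 genes followed a 24-h rhythm in each genotype. JTK_cycle, a rank test against 12 phases of a 24-h wave with an exact null, called 26 of 37 genes in controls (70.3%), against 49.7% of all genes, and 23 of 37 in Bmal1IEC-/- mice (62.2%), against 29.2%. These p-values are adjusted over phases within a gene and not over genes. With Benjamini-Hochberg adjustment over genes the counts were 20 and 14, against 40.5% and 14.7% of all genes. A 24-h cosine fitted in edgeR called 23 genes in each genotype, against 45.1% and 27.5%. Without SV384 and SV385, JTK_cycle called 26 of 38 in controls, against 48.8%, and 21 in Bmal1IEC-/- mice, against 28.5%. Both genotypes called 19 of the 37, against 22.5% of all genes. Controls alone passed for 7 genes, Bmal1IEC-/- mice alone for 4 (*Cyp3a44*, *Cyp2j6*, *Cyp2d9* and *Cyp2u1*), and 7 passed in neither. The test of the difference in rhythm did not call these 4, at edgeR adjusted p-values of 0.195, 0.902, 0.166 and 0.184, and without SV384 and SV385 *Cyp3a44* and *Cyp2j6* were not called rhythmic in Bmal1IEC-/- mice (exact JTK_cycle p = 0.0946 for each). By role, 14 of 19 genes of the xenobiotic families passed in each genotype, 6 of 11 genes of fatty acids and eicosanoids in each, and 3 of 4 genes of sterols and bile acids in controls and 2 of 4 in Bmal1IEC-/- mice. The amplitude of the fitted cosine (the distance from its mean to its peak) had a median of 0.37 on the log2 scale over the P450 genes in controls and 0.42 in Bmal1IEC-/- mice, against 0.20 and 0.16 over all genes.

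Most rhythmic P450 genes peaked in the rest phase. In controls 17 of 26 had their fitted peak between CT0 and CT12 (65.4%), against 50.3% of all rhythmic genes, and in Bmal1IEC-/- mice 20 of 23 (87.0%), against 49.6%. *Cyp51*, which makes cholesterol by removing a methyl group from lanosterol, peaked at CT3.00 in controls and CT4.36 in Bmal1IEC-/- mice. *Cyp27a1*, which starts bile acid synthesis outside the classical route, peaked at CT12.4 and CT12.5. The steepest rhythms called in both were those of *Cyp2c69*, with a peak 2.96 times its trough in controls and 4.66 times in Bmal1IEC-/- mice, *Cyp2d12* (3.45 and 2.93) and *Cyp3a11* (3.41 and 2.67). *Cyp2c69* shares 39.3% of its windows with relatives. Of the 19 genes rhythmic in both, 15 peaked later in Bmal1IEC-/- mice (78.9%), against 81.2% of the 3293 genes of the whole table rhythmic in both. The median shift was 1.54 h for the P450 genes and 1.39 h for all, so the share and size of the delay were near those of the other genes. The longest shifts were those of *Cyp3a11* (6.41 h), *Cyp3a25* (5.10 h), *Cyp2c65* (4.53 h) and *Cyp2c55* (3.73 h). In the 46 mice these 4 shifts were 6.37, 5.43, 4.46 and 4.09 h. The 24-h cosine in edgeR, which gave the peaks, did not call *Cyp2c65* or *Cyp4f13* in controls (adjusted p = 0.0570 and 0.156). The control peaks and shifts of these genes are therefore uncertain.

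**Figure D4:**
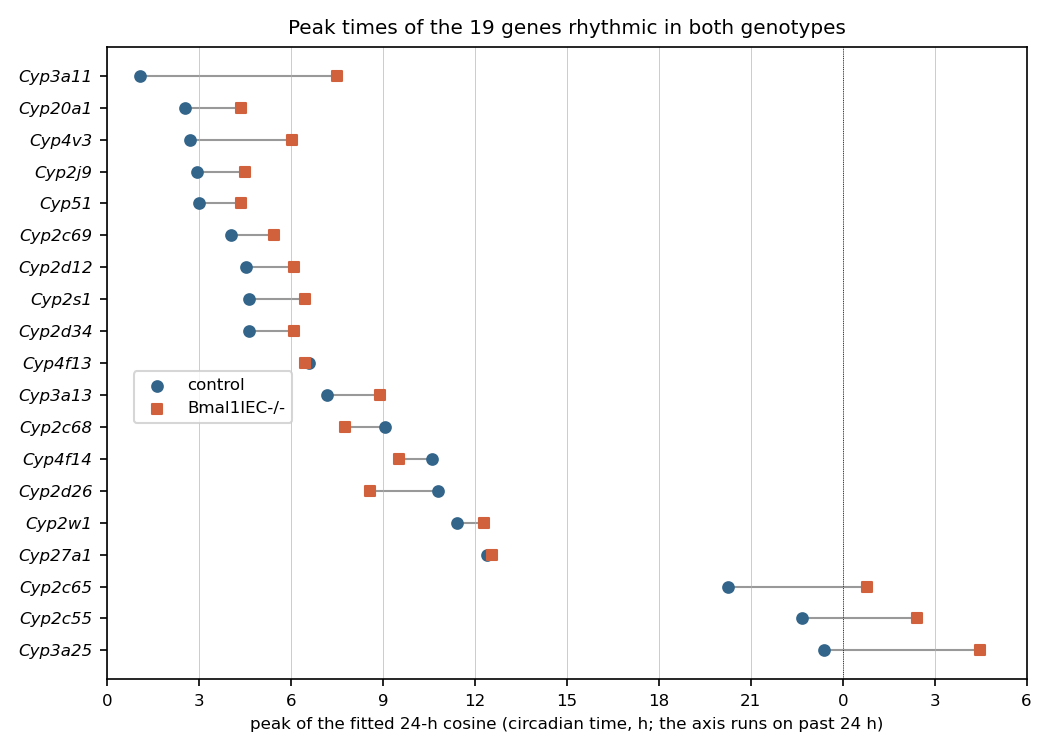
Peak of the fitted 24-h cosine, in circadian hours, for the 19 P450 genes that JTK_cycle called rhythmic in both genotypes. Controls are blue circles, Bmal1IEC-/- mice are orange squares and a line joins the 2. In 15 of 19 genes the square lies to the right of the circle, and the lines of Cyp3a11, Cyp3a25, Cyp2c65 and Cyp2c55 are the longest.

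The most abundant genes outside the *Cyp2c* cluster were called rhythmic in both genotypes. *Cyp3a13* ran in controls from 621 ± 68.4 normalised counts (SD, n = 4) at CT21 to 1135 ± 168 at CT9 and in Bmal1IEC-/- mice from 542 ± 169 at CT21 to 1099 ± 132 at CT13. *Cyp4f14* ran from 416 ± 30.8 at CT21 to 836 ± 95.0 at CT13 in controls and from 359 ± 150 to 701 ± 94.3 at the same times in Bmal1IEC-/- mice. *Cyp2d34* was highest in controls at CT9 (650 ± 79.6) and lowest at CT13 (325 ± 104), and in Bmal1IEC-/- mice highest at CT5 (656 ± 57.0) and lowest at CT17 (323 ± 63.6). For these 3 genes the test of a changed rhythm gave edgeR adjusted p-values of 0.642, 0.755 and 0.814, which does not show that the rhythms were alike. Among the other genes rhythmic in both, *Cyp2j9* had an amplitude of 0.55 on the log2 scale in controls and 0.53 in Bmal1IEC-/- mice, with peaks at CT2.92 and CT4.49. *Cyp4v3*, a fatty acid hydroxylase, had amplitudes of 0.25 and 0.31, *Cyp20a1* of 0.39 and 0.25, and *Cyp2w1* of 0.36 and 0.42. *Cyp2c68* had amplitudes of 0.44 and 0.53, *Cyp4f13* of 0.09 and 0.13, and *Cyp2d26* of 0.55 and 0.42. The test of a changed rhythm gave edgeR adjusted p-values of 0.351 to 0.934 for these 7 genes.

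Whether a rhythm itself differed was tested in edgeR by letting a 24-h cosine wave differ between genotypes (2 degrees of freedom, Benjamini-Hochberg adjustment). Of 37 P450 genes 3 were called, against 1.92% of all genes tested, namely *Cyp4b1* (adjusted p = 0.00655), *Cyp2c65* (0.0164) and *Cyp2c55* (0.0362) in the quasi-likelihood test of edgeR. For *Cyp4b1* controls peaked at CT16.8 with an amplitude of 0.49 on the log2 scale (exact JTK_cycle p = 2.60e-04) and Bmal1IEC-/- mice had an amplitude of 0.17 (p = 0.829). *Cyp2c65* and *Cyp2c55* were rhythmic in both genotypes by JTK_cycle, with a wider fitted wave in Bmal1IEC-/- mice. In controls the 24-h cosine did not call *Cyp2c65* (edgeR adjusted p = 0.0570). The amplitude of *Cyp2c65* was 0.15 in controls, peaking at CT20.3, and 0.36 in Bmal1IEC-/- mice, peaking at CT0.783. That of *Cyp2c55* was 0.16 at CT22.7 and 0.29 at CT2.41. At CT1 the *Cyp2c55* values of the 4 controls lay between 20784 and 23354 normalised counts, those of SV479 and SV480 at 25016 and 23174, and those of SV385 and SV384 at 31622 and 27591. The pair was thus above every other mouse, and without it 1 of 38 P450 genes was called, against 0.942% of all genes. *Cyp4b1* was at 0.00690, while *Cyp2c65* and *Cyp2c55* were at 0.0853 and 0.0620 with amplitudes of 0.25 and 0.23 in the remaining Bmal1IEC-/- mice. Without a filter on low counts the call of *Cyp2c55* was lost as well (edgeR adjusted p = 0.113). With all 48 mice *Cyp3a25* and *Cyp3a11* came next, at 0.0543 and 0.0616.

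**Figure D5:**
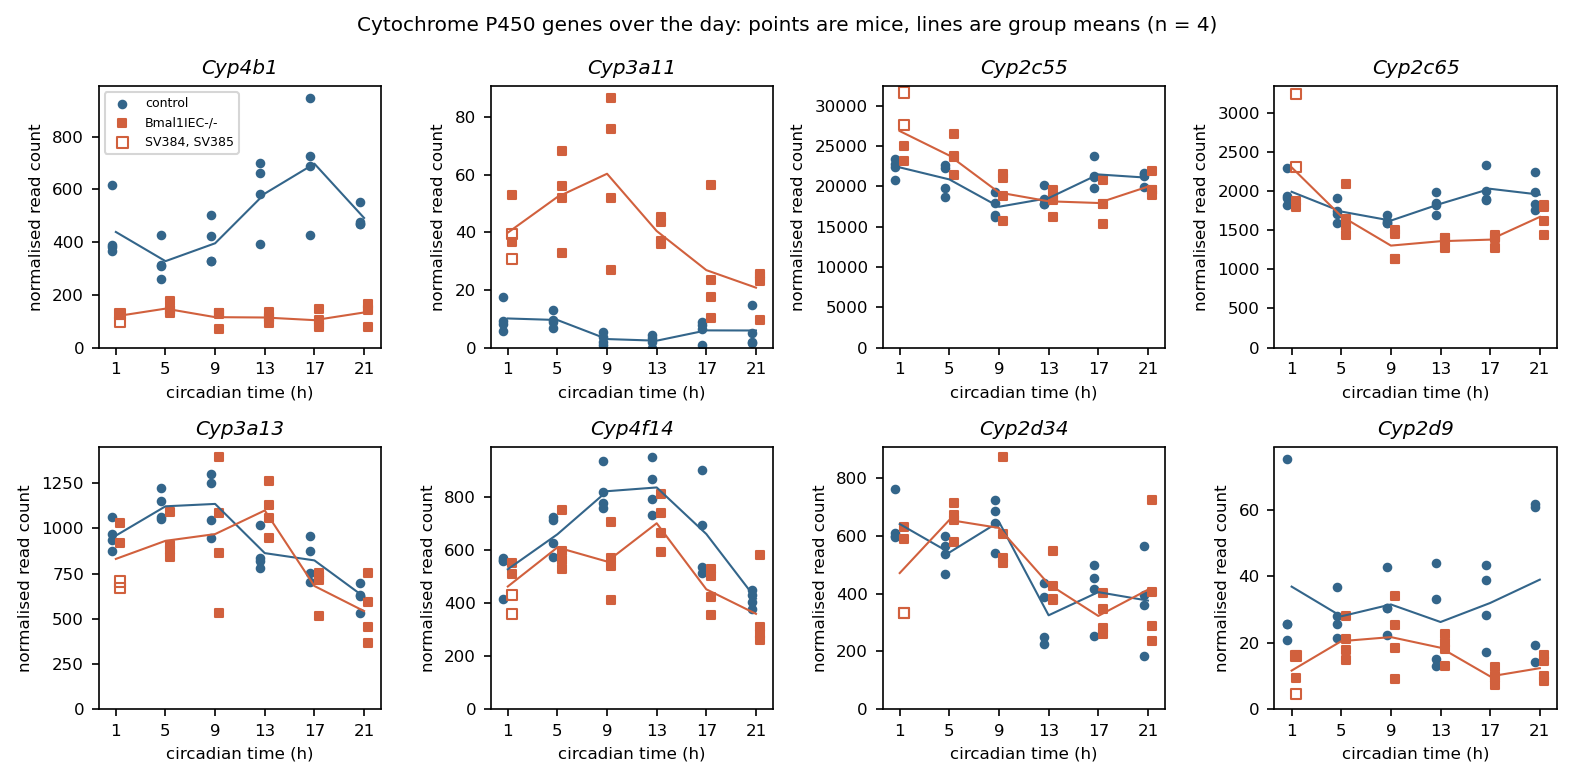
Normalised read counts of 8 cytochrome P450 genes over 6 circadian times, with 1 point per mouse, lines through the means of 4 mice, controls in blue, Bmal1IEC-/- mice in orange and the mice SV384 and SV385 as open squares at CT1. Cyp4b1 is low and flat in Bmal1IEC-/- mice, Cyp3a11 is high in them, and Cyp2c55 and Cyp2c65 start the day highest in the open squares.

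*Cyp2c55* and *Cyp2c65* are neighbours on the plus strand of chromosome 19, and their starts are shown because they were called together for a changed rhythm with 48 mice. The RefSeq promoters lie at chr19:39006769-39007068 for *Cyp2c55* and chr19:39060756-39061055 for *Cyp2c65* (GRCm38.p6). Capitals mark a match to the D-box, bound by *Dbp*, *Tef*, *Hlf* and *Nfil3*, which *Cyp2c65* had at -30 to -23, where its letters TTATATAA also read as a TATA box:
Cyp2c55: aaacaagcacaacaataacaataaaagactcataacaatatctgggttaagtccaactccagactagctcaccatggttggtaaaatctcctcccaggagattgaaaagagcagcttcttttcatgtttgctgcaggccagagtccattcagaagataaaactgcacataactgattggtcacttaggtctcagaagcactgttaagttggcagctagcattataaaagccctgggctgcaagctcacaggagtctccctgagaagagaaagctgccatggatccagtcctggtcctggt
Cyp2c65: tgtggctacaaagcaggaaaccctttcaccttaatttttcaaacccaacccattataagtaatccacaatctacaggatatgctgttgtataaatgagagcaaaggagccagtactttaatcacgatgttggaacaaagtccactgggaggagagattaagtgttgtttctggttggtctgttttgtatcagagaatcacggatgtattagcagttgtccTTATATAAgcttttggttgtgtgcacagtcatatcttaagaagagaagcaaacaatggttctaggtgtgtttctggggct
The *Cyp2c55* window had no match to any of the motifs searched.

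Among the less abundant rhythmic genes, *Cyp1a1* had the widest wave in controls. Its mean was 1.26 ± 1.21 normalised counts (SD, n = 4) at CT9, 15.5 ± 7.28 at CT21 and 16.7 ± 14.6 at CT1, an amplitude of 1.56 on the log2 scale (exact JTK_cycle p = 1.26e-05). In Bmal1IEC-/- mice it was 2.36 ± 1.69 at CT9 and 3.98 to 32.9 at CT21. JTK_cycle did not call the rhythm there (exact JTK_cycle p = 0.241). The 24-h cosine in edgeR did call it, with an amplitude of 0.93 (edgeR adjusted p = 0.0386), and its fitted peak was CT22.5 in both genotypes. The test of a changed rhythm gave an edgeR adjusted p of 0.697. Of 6 other aryl hydrocarbon receptor targets edgeR called 0 by genotype, against 12% of all genes tested, with 0 at an unadjusted p under 0.05 and 0 called by DESeq2. *Ugt1a6a* had the smallest adjusted p by genotype among them (0.190, edgeR). The test of a changed rhythm called 1 of the 6, *Nfe2l2* (edgeR adjusted p = 0.0326), against 1.92% of all genes. Without SV384 and SV385 it called 0 of the 6, against 0.942%. *Cyp26b1* was called rhythmic in controls, where CT1 was highest at 42.6 ± 28.3, and not in Bmal1IEC-/- mice, where a single mouse at CT1 reached 124.7. With all 48 mice the genotype and rhythm tests called neither *Cyp26b1* nor *Cyp2r1* as different between genotypes. Without SV479, the mouse at 124.7, the rhythm of *Cyp26b1* was called as changed (edgeR adjusted p = 0.00679, against 0.429 with it). *Cyp7b1* and *Cyp39a1*, which hydroxylate oxysterols on the way to bile acids, were at -0.20 ± 0.20 and -0.03 ± 0.06 on the log2 scale.

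Partners and regulators of the family were read from the same genotype test. Of 9 electron partners tested 1 was called (11.1%, against 12% of all genes), *Por*, the reductase that passes electrons to the P450 enzymes of the endoplasmic reticulum, which fell. *Por* ranged from 386 to 983 normalised counts in controls (median 689) and from 295 to 946 in Bmal1IEC-/- mice (median 503), a log2 difference of -0.33 ± 0.09 (edgeR adjusted p = 0.00768), and its rhythm changed as well (edgeR adjusted p = 0.00191). Without SV384 and SV385, 3 of the 9 partners were called, against 10.6% of all genes. They were *Por* (log2 -0.42, edgeR adjusted p = 3.26e-06), *Cyb5b* (-0.13, 0.0125) and *Cyb5a* (-0.11, 0.04995), all lower in Bmal1IEC-/- mice. Of 30 receptors and transcription factors that act on P450 genes, 3 rose, against 6.4% of all genes, and 7 fell, against 5.56%. Past a fold change of 1.5 were 5, against 1.35% of all genes, among them *Nr1d1* (log2 -1.56 ± 0.13) and *Nr1d2* (-1.78 ± 0.08), which encode Rev-erb receptors, *Dbp* (-0.84 ± 0.14), an activator at the D-box, and *Nfil3* (1.05 ± 0.14), a repressor there. Smaller differences were called by edgeR for *Nr1h4* (0.28 ± 0.05, adjusted p = 9.05e-05), *Vdr* (-0.26 ± 0.04, 1.54e-06) and *Ppara* (-0.25 ± 0.08, 0.0458). The same held for *Rora* (-0.27 ± 0.08, edgeR adjusted p = 0.0177) and *Tef* (-0.45 ± 0.11, 0.00366). Of the xenobiotic receptors, *Ahr* was not called, at 0.02 ± 0.06, nor was *Nr1i2*, the pregnane X receptor, at 0.01 ± 0.04. The rhythm test called 7 of the 30 as changed, against 1.92% of all genes, and 4 of 30 without SV384 and SV385, against 0.942%. *Alas1*, the rate-limiting enzyme of heme synthesis, was at -0.05 ± 0.13. The P450 enzymes with other names, *Ptgis* and *Tbxas1*, which make prostacyclin and thromboxane, were not called (-0.20 ± 0.11 and -0.13 ± 0.13).

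The 60 genes that could not be tested were near or at the floor of detection. In 49 of the 97 no mouse had more than 3 counts. Nearest to the limit was *Cyp4f18*, with 5.40 counts on average and at most 11. The liver genes *Cyp7a1*, the rate-limiting enzyme of bile acid synthesis, *Cyp1a2* and *Cyp4a14* were at 0 counts in 47, 46 and 47 of 48 mice, *Cyp8b1* in 15, and *Cyp2b10*, a target of the receptor CAR, in 33. Of the genes of steroid hormones, *Cyp11b1*, *Cyp19a1* and *Cyp21a1* had 0 counts in every mouse and *Cyp17a1* had at most 1. Of the vitamin D genes, *Cyp24a1* had at most 1 count and *Cyp27b1* at most 8. In the fit without a filter on low counts, which took in the 38 of the 60 with a count in any mouse, edgeR called 2 by genotype, against 4.29% of all genes in that fit. *Cyp27b1*, which makes active vitamin D, had 41 counts in all over 24 controls and 92 over 24 Bmal1IEC-/- mice, at 0 in 4 controls and in 0 Bmal1IEC-/- mice (edgeR adjusted p = 0.00556). *Cyp4a32* had 40 counts over controls and 14 over Bmal1IEC-/- mice, at 0 in 7 and 12 mice (edgeR adjusted p = 0.0421). For the others no difference between genotypes was detectable at this depth.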

How the data were processed

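RNA of colon tissue from 48 mice was made into libraries with a stranded mRNA kit and sequenced in paired-end mode. According to the submitters' processing notes and the study's methods, the authors trimmed reads with Trimmomatic (0.39), checked them with FastQC (0.11.5), aligned them to mm10 with STAR (2.7.5c), sorted them with SAMtools (1.3.1), dropped alignments of low mapping quality and reads in several genes, and deposited raw read counts per GENCODE vM21 gene from featureCounts (1.4.6); they then used DESeq2 (1.22.0). STAR gives reads that match several places a lower quality than the study's threshold, so reads common to near-identical P450 copies were left out, and the strand setting of the counting is not given in the sources used here.

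Groups were read from the labels, with 4 mice in each of 12 groups. In edgeR (4.0.16, R 4.3.3), genes were kept by filterByExpr over the 12 groups, scaled by TMM and tested with glmQLFit and glmQLFTest over all 14618 genes kept, for genotype with circadian time as a term, for genotype at each time, and for a cosine wave of 24 h that may differ between genotypes (2 degrees of freedom). P-values were adjusted by Benjamini-Hochberg. JTK_cycle was written anew in Python (3.11.15) with an exact null, a 24-h period and 12 phases in steps of 2 h. Normalised read counts were scaled by the size factors of DESeq2 (1.42.0), and RPKM uses the summed length of a gene's exons. Each mouse is its own replicate. The tests were checked on simulated data. Counting error alone allows up to 3 counts where 0 were seen.

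The members, lists and tests were chosen with earlier results of these data known. Values are given for members called by genotype with a fold change of at least 1.5, members called for a changed rhythm, and the 5 members with the most counts per length, while other members called by a test are given by value or within counts; in the fixed lists of partners and regulators, for genes called with that fold change and the gene with the smallest adjusted p. Beyond these, single members and list genes are named with values as examples, and these were chosen after their values were seen. Uniqueness was read from 50-base windows of the longest GENCODE transcript of each tested member. Exon sequence outside that transcript was not searched. RefSeq promoters were matched by symbol for 75 of 97 members (29 of 37 tested). One family member and some genes of the fixed lists are not reported here.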

Additional observations from a re-analysis of the deposited data

Results flagged for a closer look

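In the 12 genes described by genotype and time, the 4 mice of each group were checked for a mouse whose distance from the nearest of the others exceeded 0.829 of the whole range of its group. Of 144 groups of 4, 15 held such a mouse. The cut is set to give about 1 in 20 for independent, normally distributed values. The 144 are the same mice read in 12 genes and are not independent, so the 15 cannot be compared with that rate. *Cyp2e1* had 4 of them: SV420 at 181.8 normalised counts (control CT9, the others 16.8 to 42.8), SV453 at 171.6 (control CT17, the others 2.72 to 21.1), SV439 at 78.5 (Bmal1IEC-/- CT5, the others 5.58 to 11.2) and SV418 at 44.9 (Bmal1IEC-/- CT9, the others 6.41 to 10.2). *Cyp4b1* had 4 as well. SV469 (control CT1) was at 615 and SV441 (control CT21) at 554, both above the rest of their groups, and SV385 (Bmal1IEC-/- CT1) at 98.4 and SV402 (Bmal1IEC-/- CT9) at 71.7 were below theirs.

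The control mouse SV469 at CT1 stood out in 3 genes, being also highest in *Cyp2d34* at 763 (the others 595 to 610) and in *Cyp2d9* at 75.1 (the others 20.9 to 25.7). For *Cyp4f14*, SV454 (control CT1) was low at 415 and SV471 (Bmal1IEC-/- CT21) high at 582. The remaining mice were SV399 for *Cyp3a13* (Bmal1IEC-/- CT17, 517.5, the others 715 to 755), SV448 for *Cyp2d12* (Bmal1IEC-/- CT13, 11.4, the others 16.7 to 17.6) and SV444 for *Cyp3a11* (Bmal1IEC-/- CT21, 9.74, the others 23.2 to 25.5).

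The rhythm differed between genotypes, by the interaction test in edgeR with Benjamini-Hochberg adjustment, for *Cyp4b1* (adjusted p = 0.00655), *Cyp2c65* (adjusted p = 0.0164) and *Cyp2c55* (adjusted p = 0.0362). For *Cyp2c65* and *Cyp2c55* the call was lost without the mice SV384 and SV385.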

How the results depend on the processing

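Of the 12 genotype calls, 10 held without SV384 and SV385. The number of P450 genes that differed by genotype was 6 without a term for circadian time and 7 with a fold change of at least 1.5, and 10 to 13 when each mouse was left out in turn. Genes with a changed rhythm numbered 3 with all mice, 1 without SV384 and SV385, 5 by the DESeq2 likelihood ratio test, and 2 to 5 when each mouse was left out; the call of *Cyp2c55* was lost without SV396, SV416, SV438, SV443, SV453 or SV477 and when no filter on low counts was used, and 5 genes were called without SV441, SV479, SV480 or SV481. Genes called at 1 or more single times numbered 11 of 37, 5 without SV384 and SV385, and 7 (without SV385) to 15 when each mouse was left out. With no filter on low counts, which let in 38 more genes, 19 were called. The share of all genes called was not taken for that count, for the fit without a time term, for DESeq2 or its size factors, or for fits without 1 mouse. Those counts are therefore not compared with the whole table. Rhythmic genes in Bmal1IEC-/- mice numbered 23, with 14 after Benjamini-Hochberg adjustment over genes and 20 to 23 when each mouse was left out, and in controls 26, with 23 to 26. In the lists of partners and regulators 12 genes were called, and 10 to 14 when each mouse was left out. Leaving out single mice ended the genotype call of *Cyp2s1* in 32 of 48 fits and that of *Cyp2j6* in 19. The cause of these differences was not tested. Scaling by DESeq2 size factors gave 11 genotype calls. For rhythmic genes the leaving out of mice, and for the lists all alternatives, were chosen after seeing the data. No paired analysis was possible because each mouse belongs to 1 group and shares no number with another. At the depth of these libraries, genes with few counts, such as *Cyp3a11* in controls, limit what can be said of their rhythm.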
